A study of Penicillium citrinum with 6 samples.

Results

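The change in the transcriptome of *Penicillium citrinum* between the second and the third day on tobacco leaves was measured in 4 of the 6 libraries of the series, 2 of leaves at day 2 (TL2D) and 2 of leaves at day 3 (TL3D). They were chosen by their group labels alone, and every gene was kept. Of the 9385 genes in the tables, 8222 reached 1 FPKM in at least 2 of the 4 libraries and were tested. FPKM is a fragment count scaled by the length of the gene and by all fragments of the library. All libraries are of the wild type, and the labels name no allele or agent. Conidia in suspension were placed on the leaves, which the labels call flured, and these were kept at 25 °C. The leaves overgrown by mycelium were taken 2 or 3 days later, and total RNA was extracted with TRIzol from ground mycelium. The remaining 2 libraries (CK2D) are mycelium of Czapek-Dox plates at day 2, and their levels are given beside a few genes without a test. The group codes were matched to this description through the sampling days. Whether the replicates came from separate cultures is not in the labels. The p-values therefore measure the spread between these samples, which may be technical.

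*P. citrinum* is a filamentous mould. Its hyphae feed by secreting enzymes and taking up the products, and after a period of growth they raise conidiophores that bear chains of pigmented conidia. In *Aspergillus nidulans*, a related mould, conidiation runs through the regulators brlA, abaA and wetA in that order, and vosA and velB act in the maturation of the spores. Hydrophobins are small secreted proteins that make aerial hyphae and conidia water repellent.

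The libraries of a group were not equally alike. On the log2(FPKM + 1) scale, 359 tested genes lay at least 2-fold apart between the replicates of day 2, against 10 between those of day 3. Of these 359 genes, 255 were higher in replicate 1 of day 2, and replicate 1 was nearer to the day 3 mean in 290. The leaf libraries summed to between 582600 and 614206 FPKM. Read totals are unknown, and no counting error is given. The share of FPKM in the 10 top genes of a library was 7.29% and 6.90% on day 2 and 11.5% and 12.3% on day 3. Of the product names, 0 hold the words photosystem, chlorophyll or ribulose bisphosphate, and 6 hold plastid or chloroplast. All genes listed carry PCI numbers, so these counts cannot show whether tobacco RNA was present. Of these 6 genes, all tested, 1 rose and 1 fell, and whether they are fungal was not tested. They summed to 74.9 and 71.6 FPKM on day 2, 84.7 and 71.4 FPKM on day 3, and 137 and 161 FPKM on plates.

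**Figure D1:**
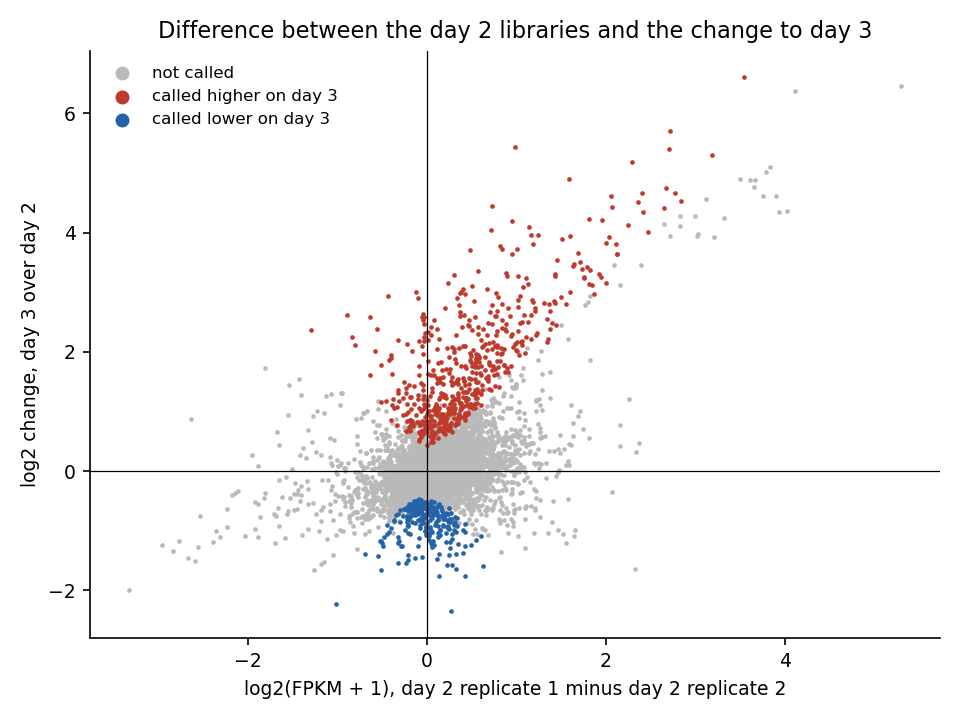
Each point is 1 tested gene, with the difference in log2(FPKM + 1) between the day 2 replicates on the x axis and the log2 change from day 2 to day 3 on the y axis, coloured by its call. Genes called higher lie mostly to the right of 0, where replicate 1 of day 2 was above replicate 2 (380 of the 450 that rose at least 2-fold had replicate 1 nearer to day 3), while genes called lower lie on both sides.

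Between day 2 and day 3, 557 genes rose and 271 fell at an adjusted p under 0.05 in limma, with Benjamini-Hochberg adjustment over all tested genes. These are 6.77% and 3.3% of the tested genes, 10.1% together, and the called genes of each list below are to be read beside these shares. At an unadjusted p under 0.05 there were 2496 of the 8222 tested genes. The authors' deposited FDR gave 1027 higher and 815 lower at the same threshold of 0.05. The median log2 change of all tested genes was -0.02. A rise was often large: 450 of the called genes had a mean at least 2-fold higher on day 3 (5.47% of those tested) and 82 at least 10-fold. Falls were smaller, with 76 genes at least 2-fold lower (0.924%) and 0 at least 10-fold lower. The filter lets a gene pass through the libraries of 1 day alone. Of the called genes, 86 that rose had a day 2 mean under 1 FPKM, and 1 that fell had a day 3 mean under 1 FPKM. With 1 FPKM required in all 4 libraries, 7799 genes were tested, 426 rose and 261 fell. At least 2-fold changes were then called in 323 and 73 genes. The authors' deposited table marks 755 genes as changed, 628 of them higher, including 514 of the 526 genes called here with a 2-fold change. In 63.4% of the tested genes both libraries of 1 day lay above both of the other day, so a lack of overlap by itself sets few genes apart. All 557 and all 271 genes were also called when replicate 1 or replicate 2 of day 2 was left out. The totals then became 1811 higher and 1440 lower without replicate 1, and 1022 and 1032 without replicate 2, with the spread taken from the day 3 pair alone. Without either day 3 library limma called 0 genes, while 1074 and 1198 genes had an unadjusted p under 0.05. The spread then comes from the day 2 pair alone. A fit of all 9385 genes without the filter on low values called 405 higher and 163 lower, and one with a pseudocount of 0.1 in place of 1 called 434 and 223. Of the 161 called genes that were named, the unfiltered fit ended 47 calls and the smaller pseudocount 37, and these losses are given where a gene is described. The filter of 1 FPKM in all 4 libraries left 23 of the 161 untested and ended 1 call.

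**Figure D2:**
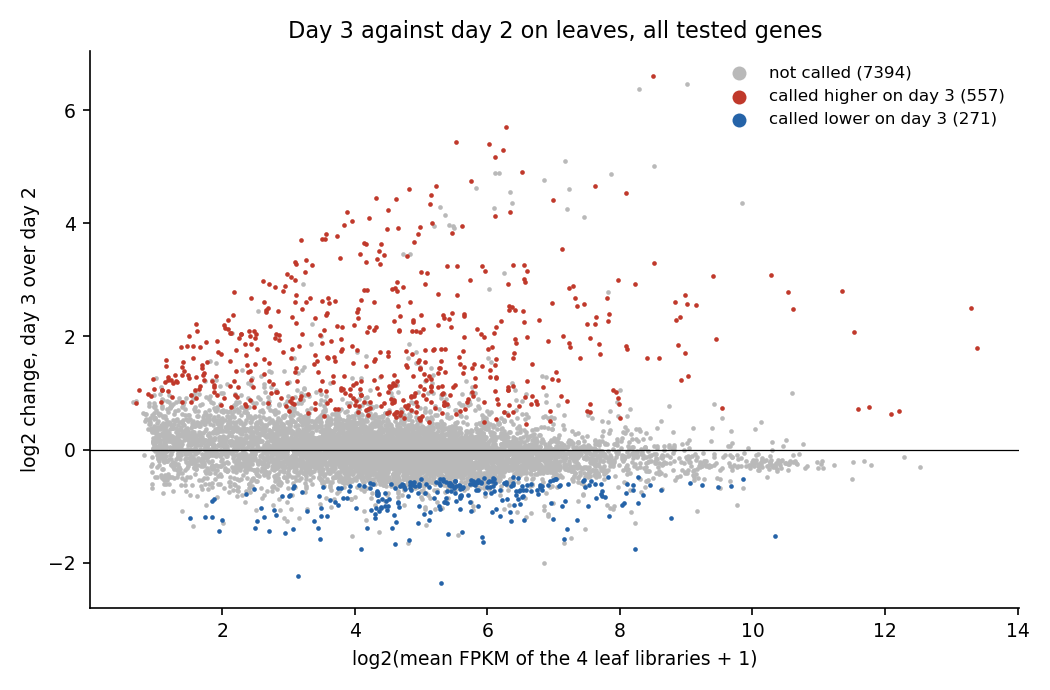
Each point is 1 tested gene, with its level (log2 of the mean FPKM of the 4 leaf libraries + 1) on the x axis and its log2 change from day 2 to day 3 on the y axis. The 557 genes called higher reach a log2 change of 6.60, and the 271 called lower reach -2.35.

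Most genes of a joint list of spore formation rose, while most conidiation regulators were not called. Of 19 genes with names of conidia and conidiophores (regulators, pigment enzymes and hydrophobins), 18 were tested, 12 rose and 2 fell, with a median log2 change of 1.88. In the separate list of conidiation regulators 10 genes were tested, 3 rose and 0 fell. Its median log2 change was 0.32, with 6 changes above 0 and 4 below. The summed levels that follow are those of the joint list. The joint list summed to 10450 and 7444 FPKM on day 2 and 22380 and 25850 FPKM on day 3. In bulk RNA a larger share of sporulating cells and more RNA per such cell cannot be told apart. How much of any other change goes with these markers was not tested. The developmental regulator wetA (PCI_1706), which in *A. nidulans* acts late in conidiation, had 34.4 and 18.1 FPKM on day 2 and 131 and 155 FPKM on day 3. Both day 3 libraries were far above both day 2 libraries, and the log2 change was 2.46 ± 0.31 (SE; adjusted p = 0.0222). Spore development regulator vosA (PCI_8689) had 17.5 and 11.2 FPKM on day 2 and 50.1 and 49.96 FPKM on day 3, a log2 change of 1.77 ± 0.22 (adjusted p = 0.0219). Velvet complex subunit B (PCI_5145), its partner in *A. nidulans*, had 10.6 and 7.56 FPKM on day 2 and 20.9 and 21.96 FPKM on day 3, with a log2 change of 1.17 ± 0.18 (adjusted p = 0.0303). The groups did not overlap in either gene, as in 63.4% of all tested genes. The regulators that act earlier were not called. brlA (PCI_2178) had 212 and 139 FPKM on day 2 and 211 and 281 FPKM on day 3, so the lowest day 3 value was just under the highest of day 2 (adjusted p = 0.253). abaA (PCI_1856) had 22.2 and 10.7 FPKM on day 2 and 38.4 and 50.9 FPKM on day 3, with no overlap, a log2 change of 1.46 ± 0.36 and an adjusted p of 0.0694. stuA (PCI_2619), a regulator of conidiophore shape in *A. nidulans*, had 156 and 106 FPKM on day 2 and 92.3 and 109.8 FPKM on day 3 (adjusted p = 0.335). The transcription factor atf21 (PCI_1410) had 19.7 and 16.6 FPKM on day 2 and 208 and 139 FPKM on day 3, and its log2 change of 3.16 ± 0.22 (adjusted p = 0.0112) was the largest called rise among the 280 tested genes named as transcription factors. Of those 280 genes, 13 rose and 4 fell (65 higher and 16 lower at an unadjusted p under 0.05, and 55 and 13 by the authors' deposited FDR). Of all 8222 tested genes 2496 had an unadjusted p under 0.05, and 6.77% rose and 3.3% fell in limma. The log2 change of the 280 genes was above 0 in 199, with a median of 0.16. Without replicate 1 of day 2 the counts were 87 and 23, and without replicate 2 they were 40 and 18.

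Most conidial pigment genes rose. In *Aspergillus fumigatus* the polyketide synthase albA makes the precursor of the grey-green melanin, ayg1 shortens it, arp2 and arp1 reduce and dehydrate it, and the oxidases abr1 and abr2 finish the polymer. The pigment list has 10 genes, of which 9 were tested; all 9 had a positive change, 6 were called, and the median log2 change was 1.98. ayg1 (PCI_7947) had 23.2 and 23.7 FPKM on day 2 and 116 and 155 FPKM on day 3 (log2 change 2.47 ± 0.16, adjusted p = 0.0112). arp1 (PCI_5104) had 18.7 and 22.03 FPKM on day 2 and 90.4 and 95.2 FPKM on day 3, a log2 change of 2.14 ± 0.12 (adjusted p = 0.0112). Its neighbour in gene number, arp2 (PCI_5105), had 74.3 and 76.5 FPKM on day 2 and 284 and 313 FPKM on day 3, with a log2 change of 1.97 ± 0.10 (adjusted p = 0.0112). In these 3 genes the day 2 replicates lay close together and far below day 3. abr1 (PCI_7946) had 76.8 and 37.7 FPKM on day 2 and 185 and 261 FPKM on day 3 (log2 change 2.01 ± 0.37, adjusted p = 0.0404). A gene named abr2 (PCI_7911) had 28.1 and 12.6 FPKM on day 2 and 72.8 and 82.4 FPKM on day 3, a log2 change of 1.98 ± 0.37 (adjusted p = 0.0415). Another of that name (PCI_8986) had 36.8 and 21.4 FPKM on day 2 and 77.3 and 78.2 FPKM on day 3, with 1.44 ± 0.26 (adjusted p = 0.0394). In all 3 oxidases replicate 2 of day 2 was the lowest library. albA (PCI_7912) had 31.3 and 6.22 FPKM on day 2 and 130.2 and 133 FPKM on day 3. The groups did not overlap and the day 2 replicates stood far apart, and the log2 change of 3.12 ± 0.70 was not called (adjusted p = 0.0597). A further abr2-type laccase (PCI_2282) stayed under 1 FPKM in all leaf libraries and was not tested. Another arp1-like gene (PCI_1167) had 35.8 and 25.2 FPKM on day 2 and 30.5 and 37.99 FPKM on day 3. Its days overlapped, and its log2 change of 0.175 was not called (adjusted p = 0.613). On plates at day 2 albA stood at 411 and 394 FPKM, arp2 at 884 and 861 and ayg1 at 302 and 268, each above both leaf days. PCI_1167 stood at 4.14 and 4.94 FPKM on plates, below both leaf days. PCI_7946 and PCI_8986 lost their call in the unfiltered fit. PCI_7911 lost its call in the fit with the smaller pseudocount and the unfiltered fit.

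The 5 hydrophobins split. PCI_0227 had 6085 and 3764 FPKM on day 2 and 15370 and 17800 FPKM on day 3 and was the most abundant transcript by the mean of the 4 leaf libraries, with a log2 change of 1.79 ± 0.26 (adjusted p = 0.0278). PCI_2310 had 1555 and 797 FPKM on day 2 and 4426 and 5054 FPKM on day 3, a log2 change of 2.09 ± 0.33 (adjusted p = 0.0311). PCI_8314 had 94.9 and 36.00 FPKM on day 2 and 384 and 380.3 FPKM on day 3; its log2 change was 2.69 ± 0.45 (adjusted p = 0.0344), or 3.37 without replicate 1 of day 2 and 2.00 without replicate 2. These 3 rose. The other pair fell. PCI_2115 had 1702 and 2137 FPKM on day 2 and 607 and 713 FPKM on day 3, a log2 change of -1.53 ± 0.16 (adjusted p = 0.0173), and PCI_9301 had 395 and 298 FPKM on day 2 and 164 and 183 FPKM on day 3, with -0.98 ± 0.16 (adjusted p = 0.0344). In all 5 genes the values of the days did not overlap, as in 63.4% of all tested genes. On plates PCI_9301 had 2.27 and 1.98 FPKM, far below either leaf day, whereas PCI_0227 had 17130 and 16190 FPKM, near its level on leaves at day 3. PCI_0227 and PCI_8314 lost their call in the unfiltered fit.

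**Figure D3:**
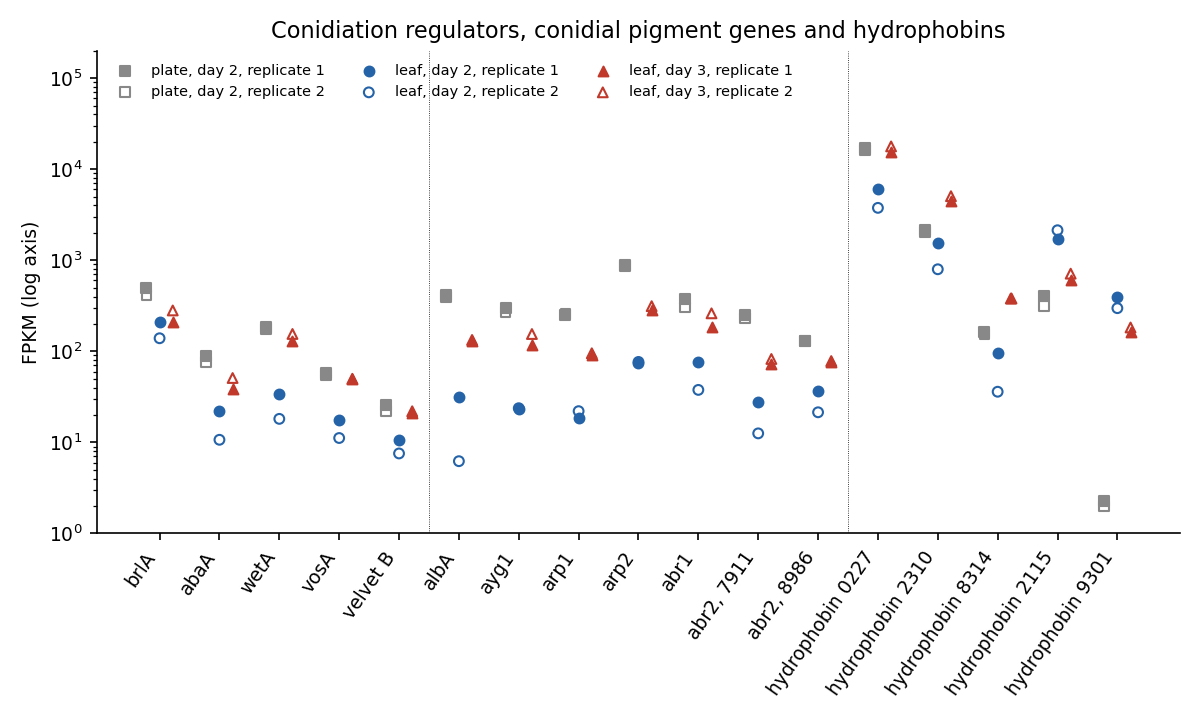
FPKM in each library on a log axis for conidiation regulators, conidial pigment genes and hydrophobins, separated by dotted lines; squares are plates at day 2, circles leaves at day 2 and triangles leaves at day 3, filled for replicate 1 and open for replicate 2. The day 3 triangles lie above the day 2 circles for every gene drawn except brlA, where they overlap, and the hydrophobins PCI_2115 and PCI_9301, where they lie below. Only part of the regulator and pigment lists is drawn. Among the genes left out are stuA (PCI_2619) and the pigment gene PCI_1167, in which the days overlap.

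The cell wall list, with 47 tested genes, had 6 that rose and 5 that fell (12 higher and 11 lower at an unadjusted p under 0.05, and 11 and 11 by the authors' deposited FDR), and its median log2 change was -0.11. Glucan 1,3-beta-glucosidase A (PCI_0537), an exoglucanase that trims beta-glucan, had 61.9 and 47.2 FPKM on day 2 and 377 and 513 FPKM on day 3. Both day 3 values were well above both day 2 values, and the log2 change was 3.00 ± 0.21 (adjusted p = 0.0112). A GPI anchored cell wall protein (PCI_7507) had 2.09 and 1.33 FPKM on day 2 and 17.7 and 13.4 FPKM on day 3 (log2 change 2.62 ± 0.22, adjusted p = 0.0147). Alpha-1,3-glucan synthase ags1 (PCI_9414), which makes an outer wall polymer, fell from 56.4 and 65.04 FPKM to 30.8 and 37.9 FPKM (-0.81 ± 0.15, adjusted p = 0.0399). The abundant glucanosyltransferase gel1 (PCI_5194) had 892 and 965 FPKM on day 2 and 682 and 768 FPKM on day 3 and was not called (adjusted p = 0.114). Enzymes that cut chitin or use its sugar made a list drawn up after the values were seen. Of its 16 tested genes 6 rose and 0 fell (9 higher and 0 lower at an unadjusted p under 0.05, and 6 and 1 by the authors' deposited FDR), with a median log2 change of 0.51. Chitinase A1 (PCI_0890) had 122 and 77.04 FPKM on day 2 and 313 and 316 FPKM on day 3 (1.69 ± 0.23, adjusted p = 0.0244). Class III chitinase (PCI_7897) had 93.3 and 40.99 FPKM on day 2 and 267 and 318 FPKM on day 3, a log2 change of 2.22 ± 0.39 (adjusted p = 0.0378). The next steps, shown after their values were seen, N-acetylglucosamine-6-phosphate deacetylase (PCI_6347) and glucosamine-6-phosphate isomerase (PCI_6344), had 32.2 and 29.8 FPKM on day 2 and 86.1 and 89.4 FPKM on day 3 and 19.4 and 19.9 FPKM on day 2 and 50.6 and 59.8 FPKM on day 3. Their log2 changes were 1.47 ± 0.10 (adjusted p = 0.0112) and 1.44 ± 0.13 (adjusted p = 0.0149). In both genes the day 2 replicates lay close together. Endochitinases B (PCI_5322) and A1 (PCI_7870) were not called, at 43.4 and 41.1 and 77.2 and 87.2 FPKM on day 3 against 51.9 and 109 and 92.2 and 119 FPKM on day 2. PCI_9414 and PCI_7897 lost their call in the unfiltered fit.

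The largest rises were found among genes that were almost silent in replicate 2 of day 2. An unnamed gene (PCI_3696) had 23.1 and 1.07 FPKM on day 2 and 906 and 518 FPKM on day 3, and its log2 change of 6.60 ± 1.17 (adjusted p = 0.0377) was the largest of the called genes above the median level; it was 8.37 without replicate 1 of day 2 and 4.83 without replicate 2. The cupin-domain oxidoreductase virC (PCI_6240) had 6.33 and 0.116 FPKM on day 2 and 180.1 and 121 FPKM on day 3 (5.70 ± 0.90, adjusted p = 0.0308), or 7.06 without replicate 1 of day 2 and 4.34 without replicate 2. Its neighbour PCI_6241, an S-(hydroxymethyl)glutathione dehydrogenase, had 6.44 and 0.142 FPKM on day 2 and 152 and 98.4 FPKM on day 3 (5.40 ± 0.89, adjusted p = 0.0339), or 6.75 without replicate 1 of day 2 and 4.05 without replicate 2. Enzymes of this name oxidise the adduct of formaldehyde and glutathione. In each of these 3 genes replicate 1 of day 2 lay between its fellow replicate and day 3. Of the 82 genes called at least 10-fold higher, replicate 1 was above replicate 2 in 80. A further 23 genes had a mean at least 10-fold higher on day 3 with no overlap and were not called; replicate 1 was above replicate 2 in 22 of them. The 2 with the largest change, named after their values were seen, are the unnamed PCI_1924, with 69.5 and 0.786 FPKM on day 2 and 1148 and 848 FPKM on day 3 (adjusted p = 0.081), and PCI_6104, with 28.7 and 0.718 FPKM on day 2 and 729 and 486 FPKM on day 3 (adjusted p = 0.0513). In all, 187 genes with a mean at least 2-fold higher and 87 at least 2-fold lower were not called. In other large rises the day 2 replicates lay nearer to each other. The unnamed gene PCI_3168 had 1.78 and 0.407 FPKM on day 2 and 118 and 60.3 FPKM on day 3 (5.43 ± 0.45, adjusted p = 0.0146). Protein HEAT-STRESS-ASSOCIATED 32 (PCI_5986) had 7.89 and 2.77 FPKM on day 2 and 110.4 and 71.4 FPKM on day 3, with a log2 change of 3.96 ± 0.46 (adjusted p = 0.0193), or 4.58 without replicate 1 of day 2 and 3.34 without replicate 2. The second most abundant transcript, the unnamed PCI_8701, had 4443 and 2033 FPKM on day 2 and 16390 and 17610 FPKM on day 3 (2.50 ± 0.38, adjusted p = 0.0296). Among the 1502 tested genes without an informative name 158 rose, 10.5%, against 5.94% of the named ones. PCI_3696 and PCI_6241 lost their call in the fit with the smaller pseudocount and the unfiltered fit. PCI_6240 lost its call in the fit with the smaller pseudocount.

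Many alcohol and fermentation enzymes rose. A list of alcohol dehydrogenases, pyruvate decarboxylases, phosphoketolases and acetate kinase, drawn up after the values were seen, has 44 genes. Of the 38 tested, 15 rose, all of them at least 2-fold, and 2 fell. At an unadjusted p under 0.05 there were 19 higher and 8 lower, and the authors' deposited FDR gave 16 and 7. The median log2 change was 0.23. The stricter filter, 1 FPKM in every leaf library, kept 30 of these genes. It left 9 called higher and 2 lower, and the median log2 change dropped to 0.05. PCI_0101 and PCI_6241, each under 1 FPKM in replicate 2 of day 2, were among the rises it removed. The most abundant riser was alcohol dehydrogenase PCI_6313, with 89.8 and 51.4 FPKM on day 2 and 595 and 460.5 FPKM on day 3 (2.93 ± 0.29, adjusted p = 0.0169). Alcohol dehydrogenase 2 (PCI_9163) had 3.31 and 2.50 FPKM on day 2 and 39.3 and 34.6 FPKM on day 3, a log2 change of 3.29 ± 0.16 (adjusted p = 0.0112). Phosphoketolase splits pentose phosphates into acetyl phosphate, from which acetate kinase makes acetate. Phosphoketolase PCI_8311 had 32.6 and 23.5 FPKM on day 2 and 161 and 150.5 FPKM on day 3 (2.45 ± 0.18, adjusted p = 0.0112). The neighbours PCI_5748, a phosphoketolase, and PCI_5749, an acetate kinase, had 3.92 and 5.48 FPKM on day 2 and 23.1 and 18.8 FPKM on day 3, and 9.03 and 9.26 FPKM on day 2 and 52.3 and 43.1 FPKM on day 3. Their log2 changes were 1.96 ± 0.20 and 2.26 ± 0.14 (adjusted p = 0.017 and 0.0112). The days did not overlap in any of these genes, as in 63.4% of all tested genes. Pyruvate decarboxylase, which opens the path from pyruvate to ethanol, behaved unevenly among its copies. PCI_0101 had 1.22 and 0.398 FPKM on day 2 and 12.6 and 14.8 FPKM on day 3 (3.06 ± 0.26, adjusted p = 0.0149), PCI_5341 had 35.9 and 38.6 FPKM on day 2 and 99.5 and 84.5 FPKM on day 3 (1.28 ± 0.12, adjusted p = 0.016), and PCI_5603 had 23.4 and 23.9 FPKM on day 2 and 20.5 and 19.2 FPKM on day 3 (adjusted p = 0.218). The 2 called falls were PCI_4034, a zinc-type dehydrogenase, from 34.8 and 31.5 to 11.5 and 12.5 FPKM (adjusted p = 0.0149), and PCI_2459, an NADP-dependent one, from 74.1 and 65.5 to 45.9 and 38.3 FPKM (adjusted p = 0.0421). PCI_2459 lost its call in the unfiltered fit.

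In glycolysis and gluconeogenesis 5 of 24 tested genes rose and 1 fell (median log2 change 0.02; 5 higher and 4 lower at an unadjusted p under 0.05, 5 and 2 by the authors' deposited FDR). This list overlaps the fermentation list, and its rises include pyruvate decarboxylase PCI_0101, already described above. Phosphoenolpyruvate carboxykinase (PCI_9087), the entry step of gluconeogenesis, had 60.1 and 44.9 FPKM on day 2 and 149 and 150.1 FPKM on day 3 (1.51 ± 0.16, adjusted p = 0.0174). Pyruvate kinase (PCI_4519), the last step of glycolysis, had 348 and 374 FPKM on day 2 and 256 and 261 FPKM on day 3 (-0.48 ± 0.09, adjusted p = 0.0446). Glyceraldehyde-3-phosphate dehydrogenase (PCI_0330) had 1650 and 1798 FPKM on day 2 and 1611 and 1633 FPKM on day 3 (adjusted p = 0.614). Malate synthase (PCI_7166) of the glyoxylate cycle, which builds sugars from acetate, had 42.7 and 36.9 FPKM on day 2 and 111 and 86.7 FPKM on day 3 (1.28 ± 0.16, adjusted p = 0.0219). Citrate synthase (PCI_6950) had 607 and 706 FPKM on day 2 and 551 and 591 FPKM on day 3 (adjusted p = 0.328), and 2 of the 23 tested genes of the TCA and glyoxylate cycles rose and 0 fell (3 higher and 4 lower at an unadjusted p under 0.05, and 3 and 3 by the authors' deposited FDR). Mannitol-1-phosphate 5-dehydrogenase (PCI_6748), of the synthesis of the storage alcohol mannitol, had 73.4 and 83.5 FPKM on day 2 and 200.4 and 173 FPKM on day 3 (1.24 ± 0.13, adjusted p = 0.017). Sugar transporters rose or did not pass the test. Of 49 tested (78 listed), 12 rose, each at least 2-fold, and 0 fell (17 higher and 2 lower at an unadjusted p under 0.05, and 17 and 1 by the authors' deposited FDR); the log2 change was above 0 in 41, with a median of 0.29. The smaller pseudocount gave 7 rises in this list and the unfiltered fit 8. With 1 FPKM required in all 4 libraries, 9 of 41 tested rose, with a median of 0.19. The hexose transporter HXT10 (PCI_5998) had 8.40 and 0.692 FPKM on day 2 and 79.98 and 50.3 FPKM on day 3. Its log2 change was 4.01 ± 0.83 (adjusted p = 0.0498), or 5.25 without replicate 1 of day 2 and 2.78 without replicate 2. The high-affinity glucose transporter HXT2 (PCI_5608) had 11.9 and 3.54 FPKM on day 2 and 53.6 and 60.6 FPKM on day 3 (2.92 ± 0.50, adjusted p = 0.0349), or 3.68 without replicate 1 of day 2 and 2.17 without replicate 2. The most abundant transporter of the list, a low-affinity glucose transporter (PCI_1027), had 204 and 248 FPKM on day 2 and 155 and 187 FPKM on day 3 and was not called (adjusted p = 0.164). PCI_4519 lost its call in the fit with the smaller pseudocount, the unfiltered fit and median log ratio scaling. PCI_5998 lost its call in the fit with the smaller pseudocount and the unfiltered fit. PCI_5608 lost its call in the unfiltered fit.

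Enzymes that break down plant polymers moved in both directions, with few calls per list. Of all tested genes 6.77% were called higher and 3.3% lower, so lists of this size would hold a few calls at those shares. The pectin list had 17 tested genes, of which 2 rose and 0 fell (2 higher and 6 lower at an unadjusted p under 0.05, and 2 and 6 by the authors' deposited FDR), and the median log2 change was -0.22. Pectin lyase A (PCI_6944), the most abundant of them, had 1388 and 1123 FPKM on day 2 and 1078 and 1121 FPKM on day 3 (adjusted p = 0.419), and endopolygalacturonase A (PCI_6081) had 594 and 406 FPKM on day 2 and 576 and 530.4 FPKM on day 3 (adjusted p = 0.605). The values of the days overlapped in both. Polygalacturonase 1 (PCI_6785) had 23.9 and 14.8 FPKM on day 2 and 64.9 and 50.7 FPKM on day 3 (1.56 ± 0.26, adjusted p = 0.034). Of 26 tested cellulose and beta-glucan genes 1 rose and 2 fell (median log2 change -0.25; 2 higher and 6 lower at an unadjusted p under 0.05, 1 and 4 by the authors' deposited FDR). Endoglucanase-4 (PCI_1520) had 29.5 and 42.4 FPKM on day 2 and 9.46 and 11.6 FPKM on day 3, a log2 change of -1.67 ± 0.21 (adjusted p = 0.0225). Endo-beta-1,4-glucanase B (PCI_3154) had 521 and 429 FPKM on day 2 and 505 and 503 FPKM on day 3 and was not called (adjusted p = 0.663). Among 37 tested hemicellulose genes 2 rose and 3 fell (median log2 change 0.03; 5 higher and 9 lower at an unadjusted p under 0.05, 4 and 4 by the authors' deposited FDR), and copies of the same name moved apart. Endo-1,4-beta-xylanase A PCI_7049 had 183 and 186 FPKM on day 2 and 96.05 and 87.1 FPKM on day 3 (-1.005 ± 0.10, adjusted p = 0.0166), while PCI_7340 of that name had 84.4 and 69.8 FPKM on day 2 and 150.3 and 122 FPKM on day 3 (0.81 ± 0.16, adjusted p = 0.044). Of 50 tested cutinases and lipases 8 rose and 1 fell (median log2 change 0.00; 14 higher and 8 lower at an unadjusted p under 0.05, 12 and 6 by the authors' deposited FDR). An esterase/lipase (PCI_4631) had 14.01 and 7.69 FPKM on day 2 and 51.4 and 44.01 FPKM on day 3 (2.09 ± 0.28, adjusted p = 0.0244), and a secreted lipase (PCI_4542) had 78.8 and 75.96 FPKM on day 2 and 46.5 and 50.7 FPKM on day 3 (-0.66 ± 0.10, adjusted p = 0.0301). Alpha-amylase A (PCI_9413), which cuts starch, had 209 and 224 FPKM on day 2 and 130.4 and 142 FPKM on day 3 (-0.66 ± 0.10, adjusted p = 0.0299). Of 72 tested peptidases 6 rose and 2 fell, with a median log2 change of -0.06. At an unadjusted p under 0.05 there were 12 higher and 11 lower, and the authors' deposited FDR gave 12 and 8. The 6 and 2 calls are near the shares of all tested genes, 6.77% and 3.3%. Aspergillopepsin-2 PCI_4066, an acid protease, had 22.96 and 23.8 FPKM on day 2 and 129 and 150.3 FPKM on day 3 (2.53 ± 0.12, adjusted p = 0.0112). The more abundant PCI_6085 of that name had 1434 and 713 FPKM on day 2 and 2135 and 1900 FPKM on day 3 and was not called (adjusted p = 0.135). PCI_6785 lost its call in the unfiltered fit. PCI_7340 lost its call in the fit with the smaller pseudocount and the unfiltered fit.

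Nitrate genes moved in opposite directions at separate places in the gene numbering. The adjoining nitrate transporter, nitrite reductase and nitrate reductase (PCI_3791, PCI_3792 and PCI_3793), whose products take up nitrate and reduce it to ammonium, were lower or not called. Nitrite reductase PCI_3792 had 150.2 and 129 FPKM on day 2 and 84.8 and 84.8 FPKM on day 3 (-0.71 ± 0.11, adjusted p = 0.0314). Nitrate reductase PCI_3793 had 73.6 and 61.6 FPKM on day 2 and 42.9 and 43.9 FPKM on day 3 (-0.62 ± 0.12, adjusted p = 0.046). The transporter PCI_3791 had 74.1 and 30.3 FPKM on day 2 and 32.4 and 34.96 FPKM on day 3, with overlap (adjusted p = 0.479). A second nitrate reductase, PCI_1262, had 5.81 and 2.27 FPKM on day 2 and 22.6 and 18.4 FPKM on day 3 (2.18 ± 0.37, adjusted p = 0.035). It opens a run of 5 consecutive gene numbers that all rose at least 2-fold. Copper-containing nitrite reductase PCI_1263, an enzyme type of nitrite reduction to nitric oxide, had 1.13 and 0.0359 FPKM on day 2 and 12.04 and 8.83 FPKM on day 3 (2.93 ± 0.38, adjusted p = 0.0232). Catechol O-methyltransferase 2 (PCI_1264) had 29.2 and 6.85 FPKM on day 2 and 159 and 135 FPKM on day 3 (3.26 ± 0.63, adjusted p = 0.0442), or 4.23 without replicate 1 of day 2 and 2.29 without replicate 2. Phenol hydroxylase PCI_1265 had 9.52 and 1.87 FPKM on day 2 and 43.1 and 40.7 FPKM on day 3, with a log2 change of 2.96 ± 0.61 (adjusted p = 0.0498), or 3.90 without replicate 1 of day 2 and 2.03 without replicate 2. The last gene of the run, PCI_1266, an ATP-grasp protein named for solid-state culture, had 12.6 and 9.06 FPKM on day 2 and 27.7 and 25.00 FPKM on day 3 (1.23 ± 0.18, adjusted p = 0.0287). All 5 had replicate 2 of day 2 as their lowest library. The 3 gene numbers on either side held 0 called genes: 2 were not tested and the other 4 had adjusted p-values from 0.144 to 0.865. Of the 13 tested nitrate and ammonium genes 3 rose and 2 fell (median log2 change 0.06; 4 higher and 3 lower at an unadjusted p under 0.05, 3 and 3 by the authors' deposited FDR). The most abundant, ammonium transporter PCI_1602, had 472 and 258 FPKM on day 2 and 348 and 379 FPKM on day 3 (adjusted p = 0.915). Replicate 1 of day 2 was the highest of the 4 libraries in this gene. PCI_3793, PCI_1264 and PCI_1265 lost their call in the fit with the smaller pseudocount and the unfiltered fit. PCI_1262 lost its call in the unfiltered fit. PCI_1263 lost its call in the fit with the smaller pseudocount and the authors' deposited FDR at the same threshold.

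The other run of consecutive gene numbers held 7 genes, most with names of secondary metabolism, PCI_8004 to PCI_8010, all at least 2-fold higher on day 3. Cyclopiazonic acid is an indole toxin of moulds made by a hybrid synthetase, and the gene of that name, PCI_8004, had 12.03 and 2.61 FPKM on day 2 and 58.1 and 58.9 FPKM on day 3 (3.12 ± 0.60, adjusted p = 0.0436), or 4.04 without replicate 1 of day 2 and 2.19 without replicate 2. Nonribosomal peptide synthetase anaPS (PCI_8005) had 13.5 and 3.30 FPKM on day 2 and 73.98 and 73.5 FPKM on day 3 (3.24 ± 0.57, adjusted p = 0.0377), or 4.12 without replicate 1 of day 2 and 2.36 without replicate 2. Indoleamine 2,3-dioxygenase PCI_8007, which opens the indole ring of tryptophan, had 4.92 and 0.805 FPKM on day 2 and 40.3 and 32.4 FPKM on day 3 (3.51 ± 0.57, adjusted p = 0.0327), or 4.36 without replicate 1 of day 2 and 2.65 without replicate 2. These genes shared a low replicate 2 and an intermediate replicate 1 on day 2. O-methyltransferase xanE (PCI_8006) had 23.5 and 5.12 FPKM on day 2 and 115 and 102 FPKM on day 3 (3.16 ± 0.65, adjusted p = 0.0497), and lactate 2-monooxygenase PCI_8008 had 109 and 41.96 FPKM on day 2 and 331 and 307 FPKM on day 3 (2.22 ± 0.45, adjusted p = 0.0465). Without replicate 1 their log2 changes were 4.16 and 2.90, and without replicate 2 they were 2.16 and 1.54. The transporter asaE (PCI_8009) had 18.2 and 14.1 FPKM on day 2 and 45.5 and 52.2 FPKM on day 3 (1.54 ± 0.16, adjusted p = 0.0174). The unnamed PCI_8010 had 18.5 and 12.7 FPKM on day 2 and 55.4 and 53.8 FPKM on day 3 (1.76 ± 0.19, adjusted p = 0.0182). The gene numbers next to the run did not follow it: lipase PCI_8003 had 6.12 and 10.9 FPKM on day 2 and 8.46 and 9.30 FPKM on day 3 (adjusted p = 0.824), and PCI_8011 had 17.2 and 32.3 FPKM on day 2 and 19.4 and 13.8 FPKM on day 3 (adjusted p = 0.368). On plates PCI_8004 had 93.1 and 91.8 FPKM and PCI_8005 112 and 118 FPKM, above day 3 on leaves. PCI_8004, PCI_8005, PCI_8007, PCI_8006 and PCI_8008 lost their call in the fit with the smaller pseudocount and the unfiltered fit.

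**Figure D4:**
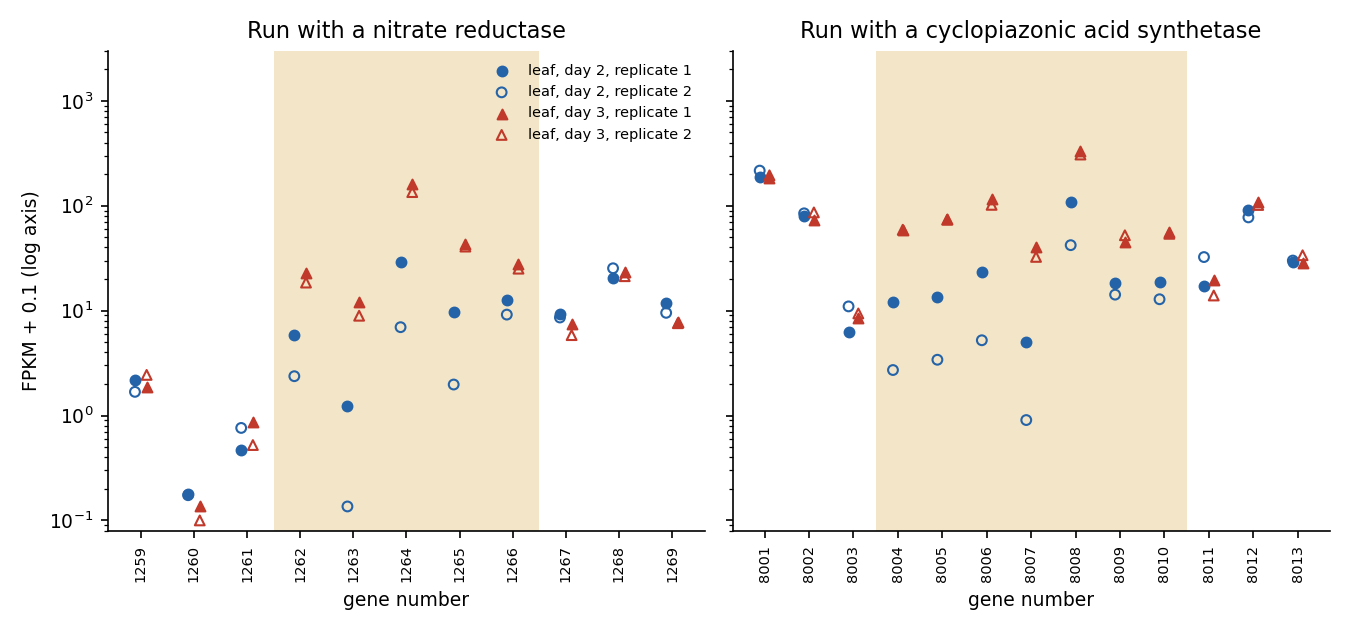
FPKM + 0.1 on a log axis for the genes of both runs (shaded) and the 3 gene numbers on either side, with circles for leaves at day 2 and triangles for leaves at day 3, filled for replicate 1 and open for replicate 2. Within the shading all triangles lie above both circles, and the genes outside it were not called or not tested.

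Secondary metabolite synthases did not share a direction. Of 26 tested, with PCI_8005 of the run among them, 3 rose and 4 fell (median log2 change -0.04; 7 higher and 7 lower at an unadjusted p under 0.05, 7 and 8 by the authors' deposited FDR). Highly reducing polyketide synthase gloL (PCI_5098) had 12.2 and 10.2 FPKM on day 2 and 3.09 and 4.14 FPKM on day 3 (-1.41 ± 0.18, adjusted p = 0.0232), and prenyltransferase phqI (PCI_8779) had 235 and 214 FPKM on day 2 and 148 and 157 FPKM on day 3 (-0.56 ± 0.10, adjusted p = 0.0396). Citrinin is a nephrotoxic polyketide of this species, and its genes with numbers PCI_3399 to PCI_3407 had lower levels on leaves on both days than on plates. The activator mrl3 (PCI_3403) was the highest of them on leaves, with 16.9 and 12.7 FPKM on day 2 and 14.3 and 14.9 FPKM on day 3, against 52.9 and 56.99 FPKM on plates. The citrinin polyketide synthase PCI_3406 had 0.04 and 0.0934 FPKM on day 2 and 0.188 and 0.11 FPKM on day 3, against 197 and 198 FPKM on plates, and was not tested. Esterase mpl1 (PCI_3405) had 5.05 and 4.85 FPKM on day 2 and 4.28 and 4.47 FPKM on day 3, against 556 and 488 FPKM on plates (adjusted p = 0.514 for the days). The citrinin list has 14 genes, of which 9 were tested, 2 rose and 0 fell (2 higher and 1 lower at an unadjusted p under 0.05, and 2 and 1 by the authors' deposited FDR). The risers lie outside that stretch: a transporter named ctnC (PCI_5755) had 3.48 and 0.701 FPKM on day 2 and 14.1 and 14.7 FPKM on day 3 (2.48 ± 0.47, adjusted p = 0.0421), or 3.18 without replicate 1 of day 2 and 1.78 without replicate 2, and an mpl2-type dioxygenase (PCI_5212) had 8.71 and 8.54 FPKM on day 2 and 18.7 and 18.04 FPKM on day 3 (1.01 ± 0.12, adjusted p = 0.0193). Sorbicillinoids are yellow polyketides, and of the 7 tested genes of their list (10 listed) limma called 0, 1 had an unadjusted p under 0.05, and the authors' deposited FDR called 1. Polyketide synthase sorB (PCI_3055) had 2.35 and 1.83 FPKM on day 2 and 1.86 and 1.96 FPKM on day 3, against 241 and 272 FPKM on plates. PCI_8005 and PCI_5755 lost their call in the fit with the smaller pseudocount and the unfiltered fit.

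Among phosphate genes falls outnumbered rises. A list of phosphate transporters, phosphatases and phytases, drawn up after the values were seen, had 21 tested genes (24 listed), of which 5 fell, all at least 2-fold in their means, and 1 rose. Low affinity inorganic phosphate transporter 1 (PCI_5241) had 29.3 and 21.6 FPKM on day 2 and 6.83 and 6.63 FPKM on day 3 (-1.76 ± 0.18, adjusted p = 0.017). The abundant transporter PCI_6750 had 223 and 266 FPKM on day 2 and 123 and 120.4 FPKM on day 3 (-0.995 ± 0.12, adjusted p = 0.0207). Acid phosphatase PCI_7243, which frees phosphate from esters, had 7.79 and 7.51 FPKM on day 2 and 2.76 and 2.77 FPKM on day 3 (-1.20 ± 0.14, adjusted p = 0.0193). 3-phytase B (PCI_0010), which frees phosphate from phytate, had 4.38 and 3.63 FPKM on day 2 and 1.17 and 1.23 FPKM on day 3 (-1.18 ± 0.16, adjusted p = 0.026). The day 2 values of these 4 genes all lay above the day 3 values, and 63.4% of all tested genes had no overlap of the days. The riser was histidine acid phosphatase PCI_3326, with 7.56 and 2.76 FPKM on day 2 and 44.1 and 35.6 FPKM on day 3 (2.84 ± 0.41, adjusted p = 0.0278), or 3.44 without replicate 1 of day 2 and 2.25 without replicate 2. Genes of tryptophan breakdown were split. Kynurenine pathway names, also listed after the values were seen, gave 10 tested genes, 3 that fell and 2 that rose (median log2 change 0.02). The strongest fall was indoleamine 2,3-dioxygenase family protein PCI_3950, with 71.00 and 58.6 FPKM on day 2 and 10.8 and 13.04 FPKM on day 3 (-2.35 ± 0.16, adjusted p = 0.0112). The neighbours kynureninase 2 (PCI_1942) and indoleamine 2,3-dioxygenase (PCI_1943) had 103 and 98.00 FPKM on day 2 and 41.5 and 46.6 FPKM on day 3, and 48.98 and 44.99 FPKM on day 2 and 19.1 and 23.8 FPKM on day 3. Their log2 changes were -1.17 ± 0.11 and -1.10 ± 0.14 (adjusted p = 0.0158 and 0.0232). The risers were PCI_8007 of the run above and PCI_0679, with 3.74 and 3.54 FPKM on day 2 and 9.06 and 7.79 FPKM on day 3 (1.02 ± 0.15, adjusted p = 0.0278). Its neighbour PCI_0680 had 20.1 and 130.2 FPKM on day 2 and 94.8 and 96.9 FPKM on day 3, so the day 2 replicates lay on either side of day 3 (adjusted p = 0.528). PCI_8007 lost its call in the fit with the smaller pseudocount and the unfiltered fit.

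Genes of ribosome assembly were lower on day 3. Of 74 tested genes of ribosome biogenesis 20 fell and 0 rose (0 higher and 66 lower at an unadjusted p under 0.05, and 0 and 55 by the authors' deposited FDR), 73 had a log2 change below 0, and the median was -0.51. Leaving out replicate 1 of day 2 gave 66 falls and leaving out replicate 2 gave 44, while median log ratio scaling gave 14, the unfiltered fit 8, and leaving out either day 3 library 0. Nop4 (PCI_4133) of the nucleolus had 48.2 and 53.97 FPKM on day 2 and 31.9 and 28.98 FPKM on day 3 (-0.73 ± 0.12, adjusted p = 0.0323). The most abundant of the list, cbf5 (PCI_4409), which modifies ribosomal RNA, had 226 and 256 FPKM on day 2 and 186 and 189 FPKM on day 3, a log2 change of -0.36 ± 0.11 that was not called (adjusted p = 0.0997). Cytosolic ribosomal proteins had a log2 change below 0 in 70 of 71 genes, with a median of -0.25. Limma called 0 of them, 22 had an unadjusted p under 0.05, and the authors' deposited FDR called 1. Without replicate 1 of day 2 the number called lower was 60, and without replicate 2 it was 1. Their summed level was 87750 and 97490 FPKM on day 2 and 76990 and 78210 FPKM on day 3. Of 66 tested translation factors and tRNA ligases 3 fell and 0 rose (0 higher and 45 lower at an unadjusted p under 0.05, and 0 and 15 by the authors' deposited FDR), with a median of -0.33. Tyrosine--tRNA ligase (PCI_3773) had 63.03 and 58.5 FPKM on day 2 and 33.00 and 33.3 FPKM on day 3 (-0.85 ± 0.10, adjusted p = 0.0206), and elongation factor 1-alpha (PCI_8195), the most abundant, had 6100 and 7051 FPKM on day 2 and 5214 and 5376 FPKM on day 3 (adjusted p = 0.19). In the amino acid biosynthesis list 3 of 58 tested genes fell and 1 rose (median log2 change -0.27; 3 higher and 24 lower at an unadjusted p under 0.05, 3 and 16 by the authors' deposited FDR), and 49 lay below 0. Leaving out replicate 1 of day 2 gave 28 falls, leaving out replicate 2 gave 12, and the fit over all 6 libraries gave 14. Cystathionine gamma-synthase (PCI_8783), of methionine synthesis, had 113 and 109.7 FPKM on day 2 and 52.8 and 59.1 FPKM on day 3 (-0.98 ± 0.10, adjusted p = 0.0178).

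Histones, which package DNA, rose in all 7 genes of their list, by a median log2 change of 0.75. The list summed to 13450 and 11590 FPKM on day 2 and 19420 and 21510 FPKM on day 3. Histone H3 (PCI_8247) had 2748 and 2400 FPKM on day 2 and 4100 and 4560 FPKM on day 3 (0.75 ± 0.13, adjusted p = 0.0365), and histone H4.1 PCI_8822 had 336 and 247 FPKM on day 2 and 644 and 707 FPKM on day 3 (1.23 ± 0.17, adjusted p = 0.0268). Of the 7, median log ratio scaling left 5 called, the smaller pseudocount also 5, and the unfiltered fit 3. How reads were split between near-identical copies such as these is not given in the sources used here. Other cell cycle genes gave few calls. G2/mitotic-specific cyclin-B (PCI_4730) had 178 and 144 FPKM on day 2 and 295 and 359 FPKM on day 3 (1.02 ± 0.16, adjusted p = 0.0303). It was 1 of 2 rises among 56 tested genes of mitosis and septins, with 0 falls (6 higher and 4 lower at an unadjusted p under 0.05, and 6 and 3 by the authors' deposited FDR). Of 36 tested DNA replication genes limma called 0 (2 higher and 6 lower at an unadjusted p under 0.05, and 2 and 4 by the authors' deposited FDR). PCI_8247 lost its call in the unfiltered fit.

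**Figure D5:**
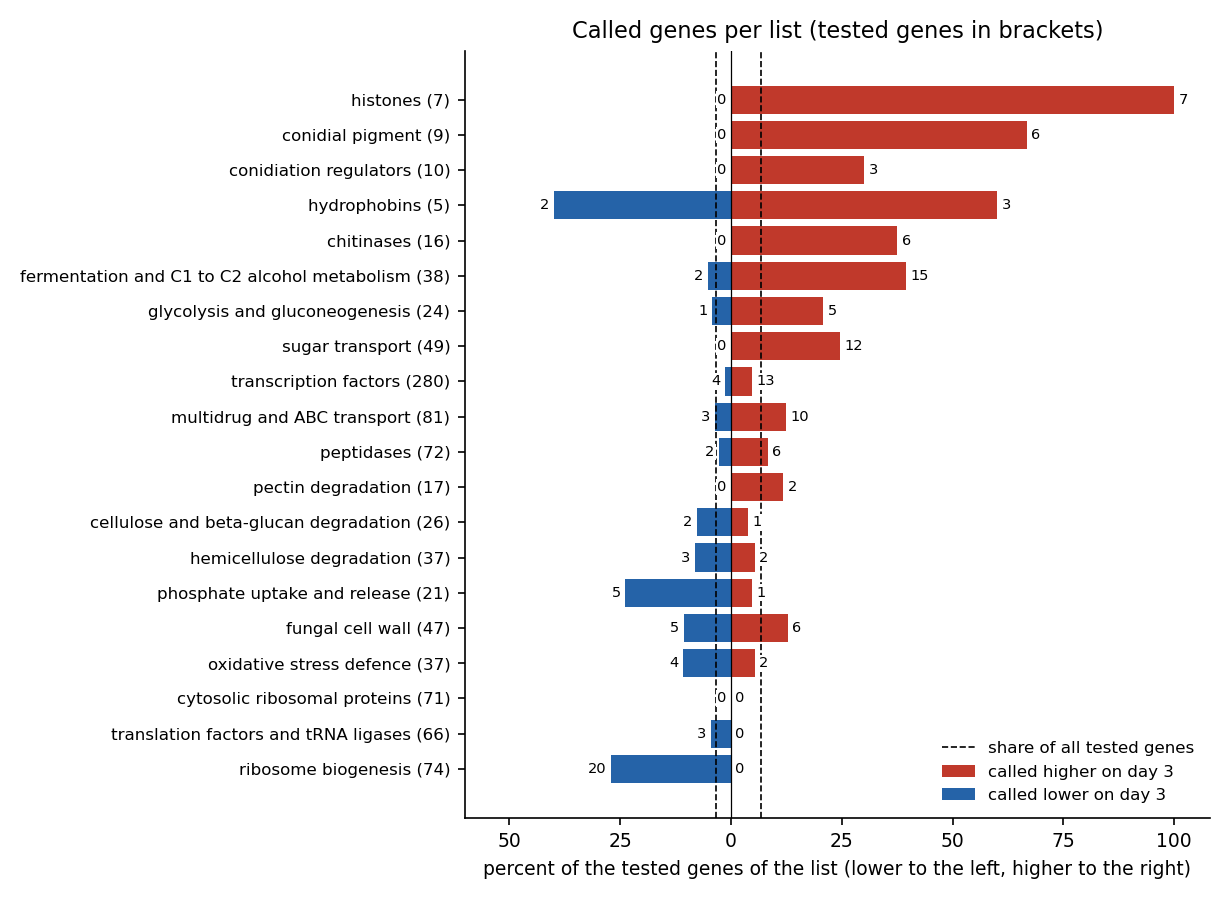
Percent of the tested genes of each list called higher (red, to the right) and lower (blue, to the left) on day 3, with the number of called genes at the end of each bar, the number tested in brackets, and dashed lines at the shares of all tested genes. Histones (7 of 7), conidial pigment (6 of 9) and sugar transport (12 of 49) are among the lists that extend past the right line. Past the left line lie, among others, ribosome biogenesis (20 of 74), hydrophobins (2 of 5) and phosphate genes (5 of 21). The phosphate, chitinase and fermentation lists were drawn up after the values were seen. The other lists were chosen with earlier results of these data known. An excess over a line is therefore no independent support for any list.

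Genes of oxidative stress defence were split, with 2 rises and 4 falls among 37 tested (median log2 change -0.12; 9 higher and 9 lower at an unadjusted p under 0.05, 4 and 7 by the authors' deposited FDR). Catalase A (PCI_9497), which splits hydrogen peroxide and is a spore catalase in *A. nidulans*, had 1.24 and 0.348 FPKM on day 2 and 41.7 and 32.4 FPKM on day 3 (4.44 ± 0.29, adjusted p = 0.0112). Another catalase (PCI_2755) had 103 and 84.8 FPKM on day 2 and 42.9 and 45.8 FPKM on day 3 (-1.06 ± 0.13, adjusted p = 0.0219). A superoxide dismutase (PCI_1659) had 8.78 and 18.8 FPKM on day 2 and 2.18 and 1.76 FPKM on day 3 (-2.23 ± 0.36, adjusted p = 0.0314), against 338 and 362 FPKM on plates. The days did not overlap in any of the 3, as in 63.4% of all tested genes. Of 53 tested chaperones 3 rose and 0 fell (5 higher and 13 lower at an unadjusted p under 0.05, and 5 and 4 by the authors' deposited FDR). Their median log2 change was -0.20. The 30 kDa heat shock protein (PCI_1906) had 18.7 and 9.21 FPKM on day 2 and 77.2 and 62.1 FPKM on day 3 (2.31 ± 0.33, adjusted p = 0.0278), and hsp98 (PCI_2248), a disaggregase, had 47.9 and 48.7 FPKM on day 2 and 95.4 and 86.6 FPKM on day 3 (0.90 ± 0.10, adjusted p = 0.0193). The abundant heat shock 70 kDa protein PCI_2075 had 769 and 818 FPKM on day 2 and 863 and 865 FPKM on day 3 (adjusted p = 0.439). Drug and ABC transporters gave 10 rises and 3 falls among 81 tested (median log2 change -0.13; 16 higher and 20 lower at an unadjusted p under 0.05, 18 and 20 by the authors' deposited FDR, and 22 and 27 without replicate 1 of day 2 or 14 and 20 without replicate 2). The transporter mfsC (PCI_4943) had 19.8 and 5.15 FPKM on day 2 and 102 and 112 FPKM on day 3 (3.25 ± 0.57, adjusted p = 0.0377), or 4.13 without replicate 1 of day 2 and 2.37 without replicate 2. Close to it in number, ABC multidrug transporter B (PCI_4946) had 48.7 and 46.8 FPKM on day 2 and 16.5 and 23.2 FPKM on day 3 (-1.25 ± 0.18, adjusted p = 0.0281). Cytochrome P450 genes gave 3 falls and 0 rises among 48 tested (6 higher and 8 lower at an unadjusted p under 0.05, and 3 and 7 by the authors' deposited FDR). The monooxygenase adrA (PCI_7156) had 47.1 and 39.4 FPKM on day 2 and 15.97 and 18.1 FPKM on day 3 (-1.29 ± 0.14, adjusted p = 0.0187). The median log2 change of the P450 list was 0.02. Iron genes gave 2 of each among 34 tested (median log2 change -0.06; 2 higher and 5 lower at an unadjusted p under 0.05, 2 and 3 by the authors' deposited FDR). A ferric/cupric reductase (PCI_5211), which reduces iron for uptake, had 8.88 and 5.99 FPKM on day 2 and 40.6 and 42.96 FPKM on day 3 (2.36 ± 0.20, adjusted p = 0.0145), and the ferric reductase PCI_9121 had 29.1 and 21.7 FPKM on day 2 and 10.3 and 7.96 FPKM on day 3 (-1.38 ± 0.20, adjusted p = 0.0281). PCI_4943 lost its call in the unfiltered fit.

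Energy, protein turnover and recycling genes gave few or no calls in limma. Of 57 tested genes of the respiratory chain and ATP synthase, which make most cellular ATP, 0 rose and 0 fell (0 higher and 1 lower at an unadjusted p under 0.05, and 0 and 1 by the authors' deposited FDR), with a median log2 change of -0.07. Of 45 tested mitochondrial ribosomal proteins 0 rose and 0 fell (1 higher and 4 lower at an unadjusted p under 0.05, and 0 and 0 by the authors' deposited FDR), with a median log2 change of -0.17. Of 33 tested subunits of the proteasome, which degrades tagged proteins, 0 rose and 0 fell (0 higher and 0 lower at an unadjusted p under 0.05, and 0 and 0 by the authors' deposited FDR), with a median log2 change of -0.02. None of these 3 lists held a gene called by limma. Of 26 tested autophagy genes, which recycle cell contents, 0 rose and 0 fell (3 higher and 0 lower at an unadjusted p under 0.05, and 1 and 0 by the authors' deposited FDR), with a median log2 change of 0.19. Of 25 tested genes of sterol synthesis 0 rose and 1 fell (3 higher and 5 lower at an unadjusted p under 0.05, and 2 and 2 by the authors' deposited FDR), with a median log2 change of -0.06. The sterol gene was the single call in these 2 lists. Of 59 tested genes of fatty acid oxidation and peroxisomes 2 rose and 1 fell (7 higher and 5 lower at an unadjusted p under 0.05, and 5 and 3 by the authors' deposited FDR), with a median log2 change of 0.04. Of 54 tested amino acid and peptide transporters 0 rose and 2 fell (7 higher and 6 lower at an unadjusted p under 0.05, and 5 and 5 by the authors' deposited FDR), with a median log2 change of 0.10.

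Further genes among the largest falls had names of varied kinds. Integral membrane protein PTH11 (PCI_5819), named after a receptor of the rice blast fungus that acts in surface recognition, had 102 and 81.8 FPKM on day 2 and 26.2 and 31.3 FPKM on day 3 (-1.64 ± 0.16, adjusted p = 0.0163). Its neighbour, the P450 pkfB (PCI_5820), had 151 and 113 FPKM on day 2 and 53.00 and 55.6 FPKM on day 3 (-1.25 ± 0.16, adjusted p = 0.0232). A peroxidase named stcC (PCI_2009) had 228 and 196 FPKM on day 2 and 71.00 and 69.4 FPKM on day 3 (-1.58 ± 0.11, adjusted p = 0.0112). In these 3 genes both day 2 libraries were above both of day 3. The largest falls were picked among called genes without overlap of the days, so that order was fixed by the choice. Another adjoining pair, dye-decolorizing peroxidase msp1 (PCI_6350) and galactose oxidase (PCI_6351), had 57.03 and 65.98 FPKM on day 2 and 22.7 and 19.8 FPKM on day 3, and 67.8 and 74.3 FPKM on day 2 and 25.4 and 25.2 FPKM on day 3. Their log2 changes were -1.49 ± 0.13 and -1.45 ± 0.10 (adjusted p = 0.0153 and 0.0112). Both stood under 1 FPKM on plates. The unnamed gene PCI_7425 had 484 and 439 FPKM on day 2 and 114 and 160.5 FPKM on day 3 (-1.76 ± 0.18, adjusted p = 0.0173) and was the largest fall among unnamed genes above the median level.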

How the data were processed

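Total RNA of *Penicillium citrinum* was sequenced, and the authors deposited FPKM per library for 9385 genes, together with a fold ratio of group means, its log2 and an FDR (a p-value adjusted for multiple tests), per the file headers. The submitters' processing notes name Cufflinks, with no version. The aligner, genome build, annotation and the test behind the FDR were not given in the sources used here. Low FPKM values showed no steps of whole reads, so depth is unknown and no count test was run.

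Groups came from the sample titles. A gene was tested when 2 or more of the 4 leaf libraries reached 1 FPKM, on log2(FPKM + 1) with limma 3.58.1 (R 4.3.3; moderated test with trend, 2 residual degrees of freedom, two-sided). Benjamini-Hochberg adjustment ran over the 8222 tested genes, with calls made below an adjusted p of 0.05. Log2 changes are on the log2(FPKM + 1) scale, which understates changes of low genes. Errors are the moderated standard errors of limma with n = 2 per group. They draw the spread of each gene towards a trend over all tested genes, with 2.88 prior degrees of freedom. The script was tested on simulated data that gave both days the same spread in each gene. The day 2 libraries here lay further apart than those of day 3, and the error rate under such unequal spread was not tested.

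Lists were made from product names. Named genes include the 15 largest called rises and the 15 largest called falls with an informative name, and the 3 largest rises and falls without one. These were taken above the median level and only where the days did not overlap. Also named are up to 2 rises, 2 falls and 2 abundant members of each list, and the 10 most abundant genes. All nitrate, sorbicillinoid, citrinin and pigment genes and runs of at least 4 consecutive called gene numbers complete the set. Not every named gene appears in a sentence. A further 18 genes and 5 lists were added after their values were seen, beside a joint list of conidial markers. The members and lists were chosen with earlier results of these data known. Alternatives were each library left out, a block for the replicate number, a pseudocount of 0.1, no filter, a filter of 1 FPKM in every leaf library, scaling by the upper quartile or by the median log ratio, a fit with the plates included (6 libraries) and the authors' FDR. Gene numbers matched 0 of the 11657 genes of the RefSeq table, so no coordinates or sequences are given.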

Additional observations from a re-analysis of the deposited data

How the results depend on the processing

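The counts of 557 higher and 271 lower genes, and of 450 and 76 with a 2-fold change, held more rises than falls in every alternative that made calls, except that leaving out replicate 2 of day 2 gave 1022 and 1032. Leaving out 1 library gave between 0 and 1811 higher, 0 and 1440 lower, 0 and 856 at least 2-fold higher and 0 and 202 at least 2-fold lower. The lowest values came from leaving out either day 3 library, where limma called 0 genes with 1074 and 1198 at an unadjusted p under 0.05, and the highest from leaving out replicate 1 of day 2. The genes called with all 4 libraries were all called without either day 2 library as well, where the spread comes from the day 3 pair alone. The fit over all 6 libraries gave 879 and 636, the authors' deposited FDR gave 1027 and 815 with 122 at least 2-fold lower, and no filter on low values gave 163 lower. The cause of these moves was not tested. The higher share of calls was 67.3%, 69.2% with upper-quartile and 71.9% with median log ratio scaling.

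The replicate numbers are shared by both days, but nothing says that they pair samples. The deviations of same-numbered libraries correlated at 0.176 across genes, which are not independent replicates. With the replicate number as a block 554 genes were higher and 185 lower, and the ribosome biogenesis list had 4 falls in place of 20. Of the 161 called genes that were named, 17 lost their call under the block, among them PCI_4519 (adjusted p = 0.0597), PCI_3793 (adjusted p = 0.0604) and PCI_8779 (adjusted p = 0.056).

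Of the 100 named genes that were not called, 6 changed direction past the threshold when a day 2 library was left out. Without replicate 1 and without replicate 2 the log2 changes were -0.44 and 2.20 in PCI_0680, 0.72 and -0.75 in PCI_6654, -0.53 and 0.49 in PCI_1334, and 1.04 and -0.45 in PCI_6211. PCI_7540 had 0.35 without replicate 1, and PCI_1602 had -0.38 without replicate 2. With 2 libraries per group and no read totals, a gene without a call is not shown to be unchanged, and no counting error is known.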
